A study of Drosophila melanogaster with 6 samples.

Results

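Ecdysone, the steroid hormone that times insect molting and metamorphosis, acts through a nuclear receptor made of the proteins EcR and Usp. The hormone-bound receptor switches on a small set of early genes, many of which encode transcription factors that then turn on later genes and feed back on one another. Drosophila S2 cells, a male embryonic line with macrophage features, carry the receptor and have long been used to study this hormone response. The 10 genes described here were taken by symbol from the 17830 genes of the deposited table. They include the receptor genes EcR and usp, the later acting nuclear receptor genes ftz-f1 and Hr39, and the kinase gene Eip63E. The others, br, Eip74EF, Eip75B, Eip78C and Eip93F, are grouped here as early genes, whatever their exact time in the cascade. All 10 passed the filter on low counts.

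The study compared S2 cells under RNA interference against Brr2, the helicase that unwinds U4 from U6 in the spliceosome, with S2 cells of a genotype labelled WT that carried a control interference treatment, with 3 RNA libraries in each group. Both groups belonged to the same line, were depleted of ribosomal RNA, and shared the protocol, which describes double-stranded RNA (8 μg in serum-free medium for 30 min, then medium with serum) although the sample titles carry the prefix sh. The labels name no ecdysone treatment and no time of collection. They do not say whether replicates were cultured separately, and if they were not, p-values cover technical spread only. The design text asks about circular RNA, which gene-level counts cannot separate from linear, unspliced or isoform-specific RNA.

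The targeted gene Brr2 appears in the table as l(3)72Ab (FBgn0263599) and held 108.5, 94.0 and 99.8 CPM (counts scaled by the TMM-adjusted library total, in the usual unit) in knockdown libraries and 158.1, 198.5 and 221.1 CPM in control libraries (edgeR log2 fold change -0.93, SE 0.155, adjusted p = 0.0111). Each library held between 127654975 and 147620403 estimated counts in all. Transposon copies took 35.7% to 36.7% of the counts in knockdown libraries and 19.4% to 23.6% in control libraries. The hemocyte regulators srp, at 97.7 ± 16.6 CPM in knockdown and 107.2 ± 9.42 CPM in control libraries, and ush, at 63.3 ± 5.56 CPM in knockdown and 62.6 ± 6.81 CPM in control libraries (SD, n = 3 each), were present. So were the male dosage compensation genes msl-2, at 42.4 ± 1.93 CPM in knockdown and 45.9 ± 3.62 CPM in control libraries, and lncRNA:roX2, called lower, at 256.3 ± 11.5 CPM in knockdown and 441.8 ± 97.6 CPM in control libraries. Of 11 hemocyte markers 8 averaged at least 1 CPM in knockdown libraries and 6 in control libraries. NimC1, Hml and Sr-CI were below that in both groups, and He (3.11 CPM in knockdown, 0.322 CPM in control) and Ance (1.94 CPM in knockdown, 0.594 CPM in control) in control libraries only. Over the list, He was called higher and Pxn lower, and the summed level was 821.8 to 1748 CPM in knockdown and 1662 to 2701 CPM in control libraries. Most of that sum was Col4a1 (459.5 CPM in knockdown, 929.3 CPM in control) and vkg (561.4 CPM in knockdown, 1034 CPM in control), neither of which was called. Among markers of other cell types, aub rose (64.2 ± 22.9 CPM in knockdown, 15.7 ± 8.66 CPM in control), which set the summed level of 4 germline markers at 51.3 to 91.7 CPM in knockdown and 11.4 to 25.9 CPM in control libraries. The sums of 4 muscle markers were 11.8 to 14.1 CPM in knockdown and 18.3 to 22.0 CPM in control libraries, with Mef2 called lower, and those of 4 neuronal markers 40.9 to 45.8 CPM in knockdown and 38.2 to 49.4 CPM in control libraries. The sums of 4 disc and ovary line markers were 105.6 to 134.7 CPM in knockdown and 79.4 to 108.4 CPM in control libraries, almost all of it ct. The sums of 4 fat body markers were 0.0479 to 0.853 CPM in knockdown and 0.056 to 0.178 CPM in control libraries. The part of the transposon share and of these markers in the changes below was not tested. In such pooled RNA, fewer cells with a transcript and less of it per cell cannot be told apart.

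After Brr2 knockdown, Eip78C, Eip93F and Eip75B rose and Eip63E fell, while the receptor genes, br, Eip74EF, ftz-f1 and Hr39 did not pass the unpaired test. Eip78C rose 4.93-fold, Eip93F 2.08-fold and Eip75B 1.59-fold, and Eip63E was left at 54.4% of its control level (n = 3 each). That is 3 of 10 genes higher and 1 lower in the edgeR quasi-likelihood test at an adjusted p of 0.05. Over all 11590 tested genes 17.7% were called, 8.05% higher and 9.63% lower. The median log2 fold change was 0.05 over the 10 genes and -0.02 over all tested genes. The groups did not overlap for 6 of the 10 genes, against 41.8% of all tested genes. With libraries of the same replicate number treated as pairs (a replicate block) 4 were higher and 2 lower, against 11.3% and 14.3% of all genes (25.6% in either direction). The block added the calls of EcR, higher, and br, lower. When libraries were scaled by total counts alone, all genes shifted by a median log2 of -0.34; 1 of the 10 genes was then higher and 4 lower, against 4.94% and 24.1% of all genes. With upper quartile scaling the shift was 0.12, and 3 were higher and 1 lower, against 10.6% and 6.98%.

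**Figure D1:**
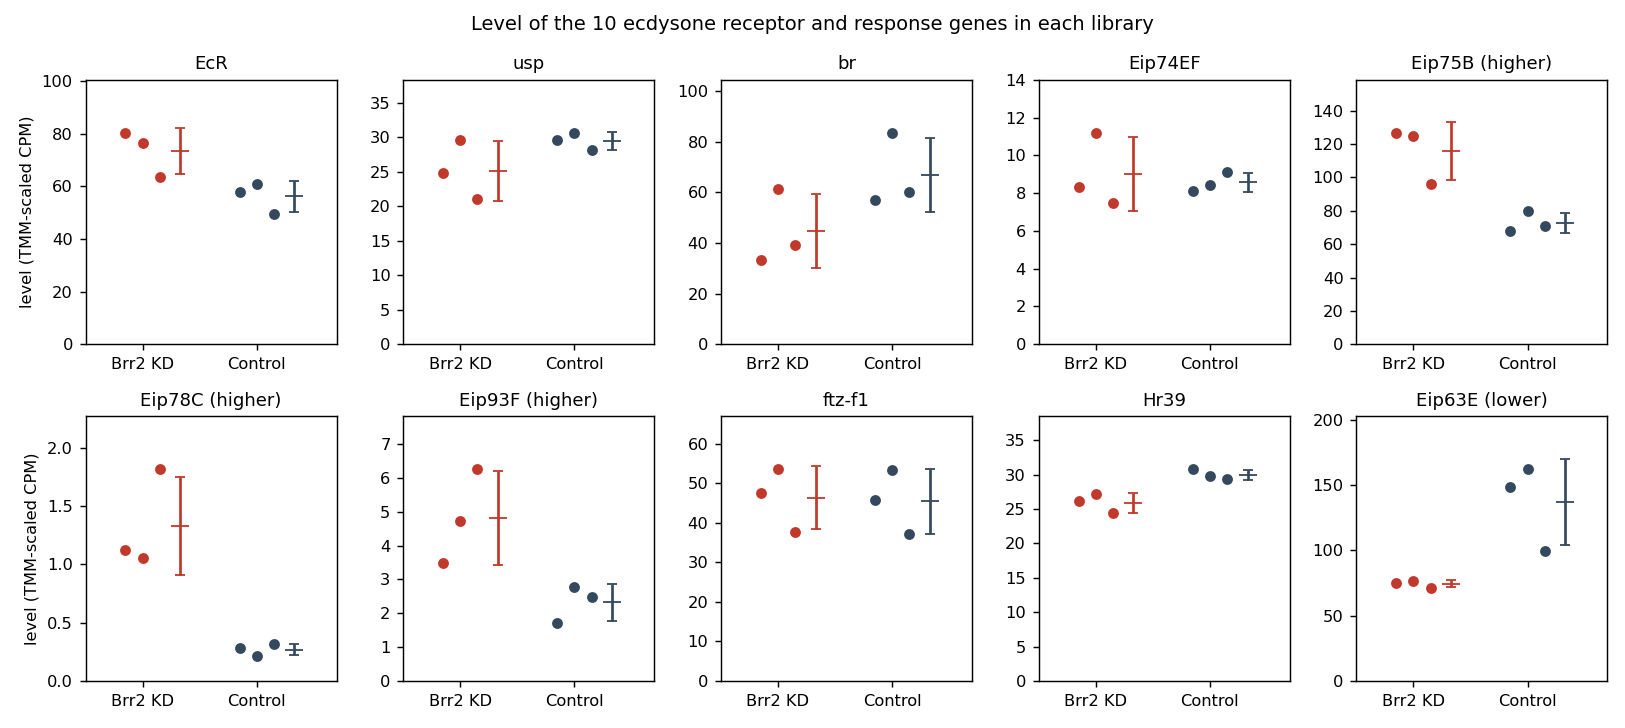
Level of each of the 10 genes in TMM-scaled CPM, 1 point per library, in Brr2 knockdown (red) and control (dark) libraries, with the mean ± SD (n = 3 each) to the right of the points. Titles mark the genes called higher or lower. The groups do not overlap for EcR, Eip75B, Eip78C, Eip93F, Hr39 and Eip63E.

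The receptor genes did not pass the unpaired test, while the ratio of their levels did not overlap between the groups. EcR (FBgn0000546; BDGP6.54, chromosome 2R, 6087873 to 6169087, minus strand), which encodes the hormone-binding subunit, held 80.4, 76.5 and 63.6 CPM in knockdown libraries and 57.9, 61.0 and 49.6 CPM in control libraries. All 3 knockdown libraries lay above all 3 control libraries. This gave a log2 fold change of 0.39 (SE 0.142; edgeR adjusted p = 0.101), and with the replicate block 0.39 (adjusted p = 0.0407), which passed. It also passed when only features of at least 5 CPM were tested (log2 0.47, adjusted p = 0.0466).

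The partner gene usp (FBgn0003964; chromosome X, 2038798 to 2042311, minus strand), the fly counterpart of the vertebrate retinoid X receptor, held 24.8, 29.6 and 21.0 CPM in knockdown libraries and 29.5, 30.7 and 28.1 CPM in control libraries. The groups overlapped, with 2 of the 3 knockdown libraries below the lowest control library. Its change on the log2 scale was -0.23 (SE 0.147; edgeR adjusted p = 0.313). The exons of usp share 265 bases with Actn on the same strand and 196 with CG4313 on the other strand. The usp count, and the ratio below, are therefore uncertain. Actn itself held 20.0 to 30.0 CPM in knockdown and 40.5 to 53.3 CPM in control libraries and was called lower (edgeR adjusted p = 0.0168). Its part in the usp values was not tested.

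Per kb of merged exons, EcR stood at 0.993, 0.79 and 0.928 of the usp level in knockdown libraries and at 0.6, 0.609 and 0.539 in control libraries. This ratio does not depend on the scaling between libraries. It was higher in every knockdown library than in every control library, with a log2 difference of 0.63 (exact 2-sided permutation test p = 0.1, the smallest that 3 against 3 allows). Leaving out single libraries gave 0.56 to 0.72. How often the ratios of other gene pairs separate the groups was not tested. Among single genes, 41.8% of all tested genes did so. The size of the ratio itself depends on the length used: per coding length it was 1.51, 1.20 and 1.41 in knockdown libraries and 0.911, 0.925 and 0.82 in control libraries, so EcR was then above usp in every knockdown library, while the log2 difference between the groups stayed at 0.63.

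Of the early genes, the members of the E75 and E78 nuclear receptor branch rose. Eip75B (FBgn0000568; chromosome 3L, 17950953 to 18064696, minus strand) encodes a heme-binding nuclear receptor that represses other genes of the hormone cascade. It held 126.9, 124.8 and 95.8 CPM in knockdown libraries and 68.0, 79.7 and 71.1 CPM in control libraries. Every knockdown library was above the control range (log2 0.67, SE 0.149, edgeR adjusted p = 0.0255). The call was lost without knockdown replicate 1 or 2 or control replicate 1 or 2 (adjusted p between 0.0572 and 0.0981), without the filter on low counts (0.0527) and with total counts only (log2 0.33, adjusted p = 0.184).

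Eip78C (FBgn0004865; chromosome 3L, 21226609 to 21266503, plus strand), which encodes a nuclear receptor close in sequence family to that of Eip75B, was the rarest of the 10 transcripts. Its estimated counts were 123, 132 and 243 in knockdown libraries and 40, 30 and 51 in control libraries, or 1.13, 1.05 and 1.82 CPM against 0.28, 0.215 and 0.313 CPM. Knockdown replicate 3 was the highest library, and the lowest knockdown library was still above the highest control library. On the log2 scale the change was 2.30 (SE 0.36; edgeR adjusted p = 0.00979), with a range of 1.96 to 2.44 over the alternatives that tested it. The gene was called in each of these, including every fit without 1 library (adjusted p of 0.0145 to 0.0421). With a minimum mean of 5 CPM, neither it nor Eip93F was tested.

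Eip93F (FBgn0264490; chromosome 3R, 21949114 to 22014539, plus strand), a transcription factor gene that acts late in metamorphosis, in the death of larval tissues and the switch to the adult program, was also low. It held 3.47, 4.74 and 6.25 CPM in knockdown libraries and 1.72, 2.76 and 2.48 CPM in control libraries. The groups did not overlap, though the gap between the lowest knockdown and the highest control library was small beside the spread among knockdown libraries. This gave a log2 fold change of 1.06 (SE 0.292; edgeR adjusted p = 0.0486). The call was lost without any 1 of the 6 libraries (adjusted p between 0.0629 and 0.154), when no filter was used (0.0875) and with total counts only (log2 0.72, adjusted p = 0.138).

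The early genes br and Eip74EF did not pass the unpaired test. The zinc finger gene br (FBgn0283451; chromosome X, 1575132 to 1664869, plus strand), whose products specify the pupal stage, held 33.4, 61.2 and 39.3 CPM in knockdown libraries and 56.9, 83.6 and 60.0 CPM in control libraries. The groups overlapped, because replicate 2 was the highest library in both, yet each knockdown library was below the control library of the same number. Without the block the change was -0.58 on the log2 scale (SE 0.257, edgeR adjusted p = 0.155), and with it -0.61 (adjusted p = 0.0179), which passed. The gene was also called lower without knockdown replicate 2 (log2 -0.89, adjusted p = 0.0383) and with total counts only (log2 -0.91, adjusted p = 0.0456). Its exons share 189 bases with Mur2B on the other strand.

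Eip74EF (FBgn0000567; chromosome 3L, 17558672 to 17619325, minus strand), which encodes an ETS domain transcription factor, held 8.33, 11.2 and 7.46 CPM in knockdown libraries and 8.13, 8.43 and 9.15 CPM in control libraries. The highest and the lowest library of all 6 were both knockdown libraries. Its change on the log2 scale was 0.07 (SE 0.19; edgeR adjusted p = 0.823), and its sign turned with total counts only and without knockdown replicate 2.

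**Figure D2:**
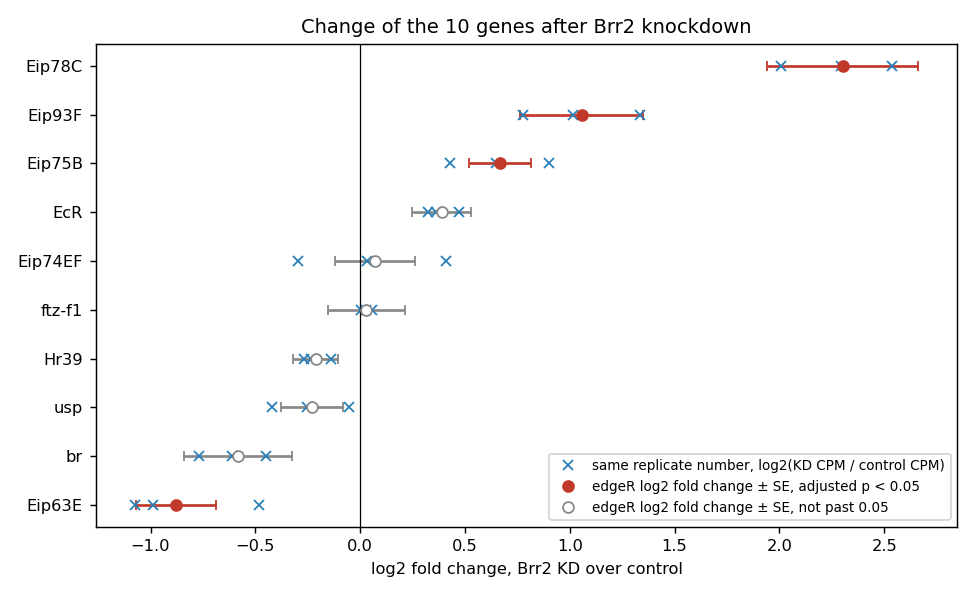
Log2 fold change of each gene, Brr2 knockdown over control, as the edgeR estimate ± SE (circles, filled where the adjusted p was under 0.05) and as the log2 ratio of CPM between libraries with the same replicate number (crosses, 3 per gene). For br all 3 crosses lie below 0, from -0.77 to -0.45, and for EcR all 3 lie above 0, from 0.33 to 0.47; for Eip74EF they lie on both sides.

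The later acting nuclear receptor genes did not pass the test. For ftz-f1 (FBgn0001078; chromosome 3L, 18750607 to 18801309, minus strand), whose product makes prepupal tissues competent for the next hormone pulse, knockdown libraries held 47.7, 53.5 and 37.7 CPM and control libraries 45.8, 53.3 and 37.1 CPM. Libraries with the same replicate number were close to each other, and the numbers differed more than the groups did (log2 0.03, SE 0.184, edgeR adjusted p = 0.93). Of its 8581 bases of merged exons, 2521 are shared with lncRNA:CR45939 on the same strand, so these values are uncertain; that gene was at most 1.65 CPM in any library.

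Hr39 (FBgn0261239; chromosome 2L, 21237250 to 21259675, plus strand) encodes the nuclear receptor most closely related to that of ftz-f1. It held 26.1, 27.1 and 24.4 CPM in knockdown libraries and 30.8, 29.8 and 29.4 CPM in control libraries. All 3 knockdown libraries lay below the control range, by a small amount (log2 -0.21, SE 0.105, edgeR adjusted p = 0.199). With total counts only, Hr39 (log2 -0.55, adjusted p = 0.0261) and usp (log2 -0.56, adjusted p = 0.0453) were called lower.

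Eip63E (FBgn0005640; chromosome 3L, 3515751 to 3610521, plus strand), a gene of the cyclin-dependent kinase family that was named for its induction by the hormone, was the member that fell. It held 75.0, 76.9 and 71.4 CPM in knockdown libraries and 148.8, 162.0 and 99.7 CPM in control libraries. The knockdown libraries were close together, and control replicate 3 lay between them and the other control libraries. On the log2 scale the change was -0.88 (SE 0.189; edgeR adjusted p = 0.0228). The call was lost without knockdown replicate 1 or 3 or control replicate 1 or 2 (adjusted p of 0.0753 to 0.0848), while the log2 fold change over all alternatives ran from -1.19 to -0.74.

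Levels of the 10 genes were compared per kb of merged exons. In control libraries Eip63E was highest at 20.9 ± 5.02 CPM per kb, followed by usp at 9.69 ± 0.422 and a cluster of Hr39, EcR, Eip75B and ftz-f1 at 6.02 ± 0.144, 5.66 ± 0.597, 5.42 ± 0.45 and 5.29 ± 0.949 CPM per kb, in which neighbours overlapped. Below them came br at 3.31 ± 0.725, Eip74EF at 0.919 ± 0.056, Eip93F at 0.183 ± 0.0427 and Eip78C at 0.0458 ± 0.00852 CPM per kb, none overlapping with its neighbour (SD, n = 3). In knockdown libraries Eip63E was again first at 11.4 ± 0.422 CPM per kb, and Eip75B came next at 8.61 ± 1.29, overlapping with usp at 8.27 ± 1.42, which overlapped with EcR at 7.40 ± 0.883. Then followed ftz-f1 at 5.40 ± 0.931 and Hr39 at 5.19 ± 0.28, which overlapped, br at 2.21 ± 0.726, Eip74EF at 0.964 ± 0.211, and Eip93F and Eip78C, which overlapped, at 0.38 ± 0.11 and 0.227 ± 0.0716 CPM per kb. Against all tested genes with an annotated length, Eip75B stood at the 63.5th percentile in knockdown and the 52.2nd in control libraries, Eip63E at the 70.2nd in knockdown and the 81.7th in control libraries, and Eip78C at the 15.2nd in knockdown and the 5.51st in control libraries.

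**Figure D3:**
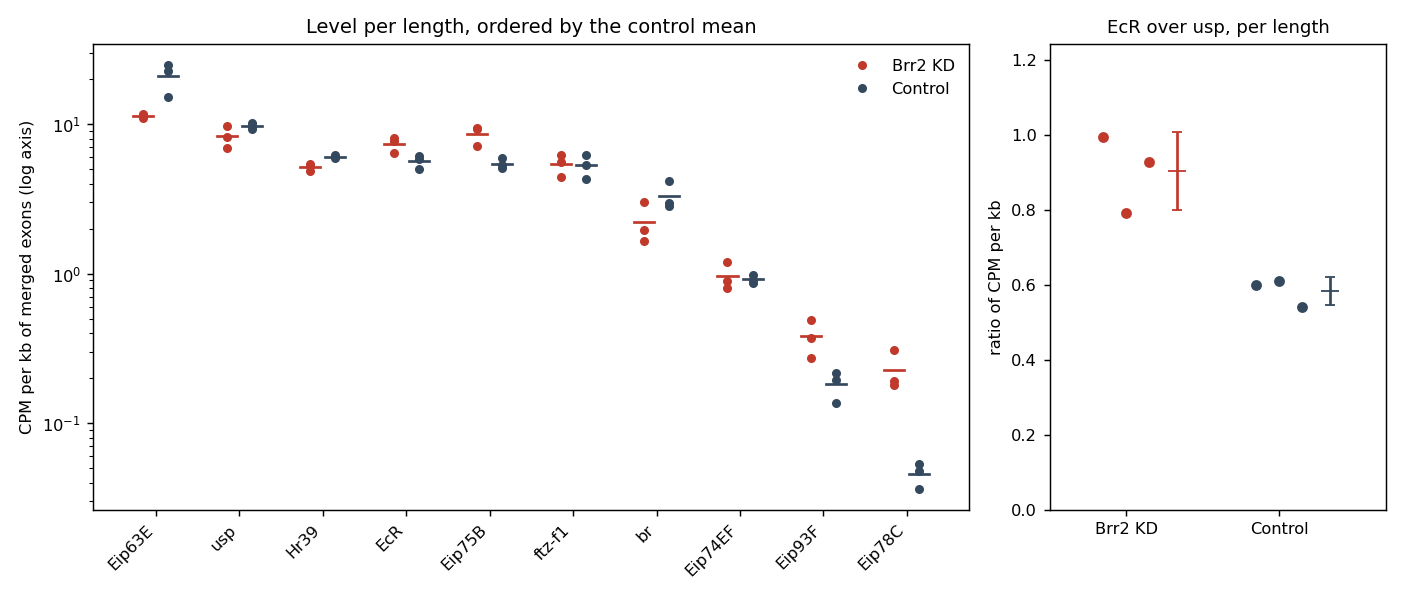
Left, level of each gene in CPM per kb of merged exons (log axis), 1 point per library and a line at the mean, ordered by the control mean, with knockdown left of control for each gene. Right, ratio of EcR to usp per length in each library with mean ± SD; the knockdown libraries lie at 0.79 to 0.993 and the control libraries at 0.539 to 0.609.

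The genes share a structure that the choice of members did not use. All but usp have an intron of at least 10 kb, with longest introns from 14989 bases in Hr39 to 65240 bases in Eip75B, whereas the longest intron of usp is 402 bases. The number of annotated transcripts runs from 2 for usp to 14 for Eip63E and 16 for br, and the values here sum over them. Of the 9 genes with an intron of at least 10 kb, 4 were called. Among all 908 tested genes with such an intron 24.0% were called, 11.0% higher and 13.0% lower. No exon of Eip75B, Eip78C, Eip93F or Eip63E overlaps an exon of another annotated gene, with transposon copies left out of this check. In the span of Eip75B, lncRNA:CR45921 on the same strand was called higher (1.88 CPM in knockdown, 0.284 CPM in control). In that of Eip63E, lncRNA:CR45820 on the other strand was called lower (9.79 CPM in knockdown, 23.7 CPM in control). The other genes overlapping these spans were not called or not tested. Their part in the members' values was not tested.

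Beyond the 10 genes, 82 of 84 listed genes of hormone supply, receptor partners, related nuclear receptors and targets were in the table. Of these 53 were tested, and 7 were higher and 2 lower, with a median log2 fold change of 0.19, against -0.02 for all tested genes and the shares of 8.05% higher and 9.63% lower given above. The 29 untested genes reached at most 0.286 CPM in any library. Among them were the salivary glue genes Sgs3, Sgs4 and Sgs5, at most 0.0524 CPM, and the 11 Eig71E genes, which respond late to the hormone in the salivary gland, at most 0.0823 CPM. With the replicate block 7 of the 53 were higher and 11 lower, against 11.3% and 14.3% of all genes. The 9 calls of the unpaired test were kept, and the 9 calls gained were all lower. At a minimum mean of 5 CPM only 32 genes of the lists were tested, 2 higher and 2 lower, against 793 and 870 of 6544 genes. The median at that minimum was not taken. The median of 0.19 includes the genes under it, nearly all of which had log2 fold changes above 0. Most genes of the lists at or above it had log2 fold changes below 0. With total counts only 4 of the 53 were higher and 12 lower, against 4.94% and 24.1% of all genes. With DESeq2 8 were higher and 9 lower, against 12.4% and 15.2% of all genes with that tool. The shares for the unpaired test and the block apply beside the counts of each role list below.

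Genes of hormone supply moved in both directions. Of 6 tested genes of synthesis and turnover, shd, which encodes the enzyme that converts ecdysone to its active form, was called higher. It held 3.57, 0.631 and 0.666 CPM in knockdown libraries and 0.259, 0.193 and 0.154 CPM in control libraries, so that knockdown replicate 1 set most of the size (7.99-fold, SE 0.758 on the log2 scale, edgeR adjusted p = 0.0374). Without that library the change was 1.68 on the log2 scale (adjusted p = 0.0871); the call was also lost without any 1 control library (0.0853 to 0.119), with limma voom (0.104) and with no filter (0.0737). Start1, which encodes a lipid transfer protein linked to steroid synthesis, held 16.2 ± 1.33 CPM in knockdown and 20.9 ± 2.05 CPM in control libraries and did not pass (log2 -0.37, adjusted p = 0.0956), but was called lower with the replicate block (log2 -0.37, adjusted p = 0.0493). The importer gene Oatp74D, whose product carries ecdysone into cells, fell: it held 44.2, 41.7 and 33.5 CPM in knockdown libraries and 74.6, 95.9 and 58.7 CPM in control libraries. Its groups did not overlap (log2 -0.94, SE 0.203, edgeR adjusted p = 0.023), and the call was lost without knockdown replicate 1 or 3 or control replicate 1 or 2 (0.0638 to 0.0788).

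Among 8 tested genes listed with the receptor partners, the coactivator gene tai rose. It held 128.3, 129.4 and 127.8 CPM in knockdown libraries and 87.2, 95.6 and 97.9 CPM in control libraries. The knockdown libraries were nearly equal (log2 0.46, SE 0.109, edgeR adjusted p = 0.0313). The call held without control replicate 3 and was lost without any other single library (0.0697 to 0.112), without the filter (0.0525) and with total counts only (log2 0.12, adjusted p = 0.609). The corepressor gene Smr, the methyltransferase gene trr and the chromatin remodeling gene E(bx) did not pass, with log2 fold changes of -0.25, -0.12 and -0.40. With the replicate block E(bx) was called lower (log2 -0.41, adjusted p = 0.0499). The list also held DopEcR, a membrane receptor gene rather than a partner, named here after its values were seen. It averaged 0.314 CPM in knockdown and 0.0184 CPM in control libraries and did not pass (log2 3.97, edgeR adjusted p = 0.0677).

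Of 10 tested genes among the other nuclear receptors, Hr4 and Hr38 rose and 0 fell, or 1, Hnf4, with the replicate block. Over all tested genes 8.05% were higher and 9.63% lower, or 11.3% and 14.3% with the block. Hr4, itself an early-late gene of the cascade, held 2.74, 3.35 and 3.68 CPM in knockdown libraries and 0.896, 1.46 and 1.77 CPM in control libraries (log2 1.24, SE 0.303, edgeR adjusted p = 0.0338). Hr38, whose product can also pair with Usp, held 0.871, 0.519 and 0.95 CPM in knockdown libraries and 0.161, 0.251 and 0.289 CPM in control libraries (log2 1.74, SE 0.417, edgeR adjusted p = 0.0322). Both rested on low levels. Hr4 kept its call without control replicate 3 and lost it without any other library (0.0754 to 0.103), and Hr38 lost it without knockdown replicate 1 or 3 or control replicate 1 or 2 (0.0849 to 0.11); without the filter on low counts (0.067 for Hr4 and 0.0579 for Hr38) and with total counts alone (0.1 and 0.0554) neither was called. Hnf4, Hr96 and Hr78 did not pass, with log2 fold changes of -0.53, 0.32 and 0.23; the blocked value of Hnf4 was -0.54 (adjusted p = 0.0262).

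Of 8 tested regulators in the response, vri rose and bun fell. The bZIP gene vri held 27.9, 14.0 and 15.3 CPM in knockdown libraries and 9.65, 6.90 and 5.54 CPM in control libraries (log2 1.37, SE 0.322, edgeR adjusted p = 0.0297), and kept its call only without knockdown replicate 2 among the fits that left out a library (0.0502 to 0.102 in the others), and not when no filter was used (0.0613). The gene bun held 188.0, 248.9 and 201.9 CPM in knockdown libraries and 394.3, 370.8 and 287.9 CPM in control libraries (log2 -0.72, SE 0.174, edgeR adjusted p = 0.0327). Its call was lost without knockdown replicate 1 or 3 or control replicate 1 or 2 (0.1 to 0.123) and with no filter (0.057). Sox14, a direct target of the receptor, was at 18.5 ± 2.27 CPM in knockdown and 12.6 ± 4.14 CPM in control libraries and did not pass (log2 0.55, adjusted p = 0.176), nor did mld (log2 -0.43) and Kr-h1 (log2 0.32). The juvenile hormone receptor genes gce and Met did not pass either (log2 -0.53 and -0.02). With the replicate block mld (log2 -0.44, adjusted p = 0.04) and gce (log2 -0.54, adjusted p = 0.044) were called lower.

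Of 17 tested effector and target genes, ImpE1 and hid rose and 0 fell, or 4 with the replicate block. The shares of all genes were 8.05% higher and 9.63% lower, and 11.3% and 14.3% with the block. ImpE1, an ecdysone-inducible gene first described in imaginal discs, held 1.61, 1.30 and 1.76 CPM in knockdown libraries and 0.175, 0.394 and 0.577 CPM in control libraries (log2 2.02, SE 0.453, edgeR adjusted p = 0.026). The cell death gene hid held 5.21, 1.83 and 4.26 CPM in knockdown libraries and 0.827, 0.659 and 0.651 CPM in control libraries. The groups did not overlap for either gene, and hid had a log2 fold change of 2.40 (SE 0.407, edgeR adjusted p = 0.0116). ImpE1 lost its call without knockdown replicate 1 or 3 or control replicate 1 or 2 (0.0501 to 0.0856) and with no filter (0.0547), and hid without control replicate 2 (0.0503). Ldh, also known as ImpL3 and induced by the hormone in discs, varied widely: it held 30.2, 165.8 and 26.6 CPM in knockdown libraries and 582.0, 710.0 and 122.0 CPM in control libraries, and did not pass (log2 -2.67, SE 0.896, adjusted p = 0.0818). The small heat shock gene Hsp23, whose promoter responds to the hormone, held 7.82 to 35.5 CPM in knockdown and 14.2 to 136.5 CPM in control libraries, and its relative Hsp26 held 24.7 to 157.0 CPM in knockdown and 36.4 to 697.5 CPM in control libraries. Neither passed, and in both groups replicate 1 was the highest library. With the replicate block Ldh (log2 -2.83, adjusted p = 0.0159), Hsp23 (log2 -1.47, adjusted p = 0.0126) and Hsp26 (log2 -1.59, adjusted p = 0.0265) were called lower, and so was ImpL2 (log2 -1.22, adjusted p = 0.0308), an inhibitor of insulin signaling named here after its values were seen.

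**Figure D4:**
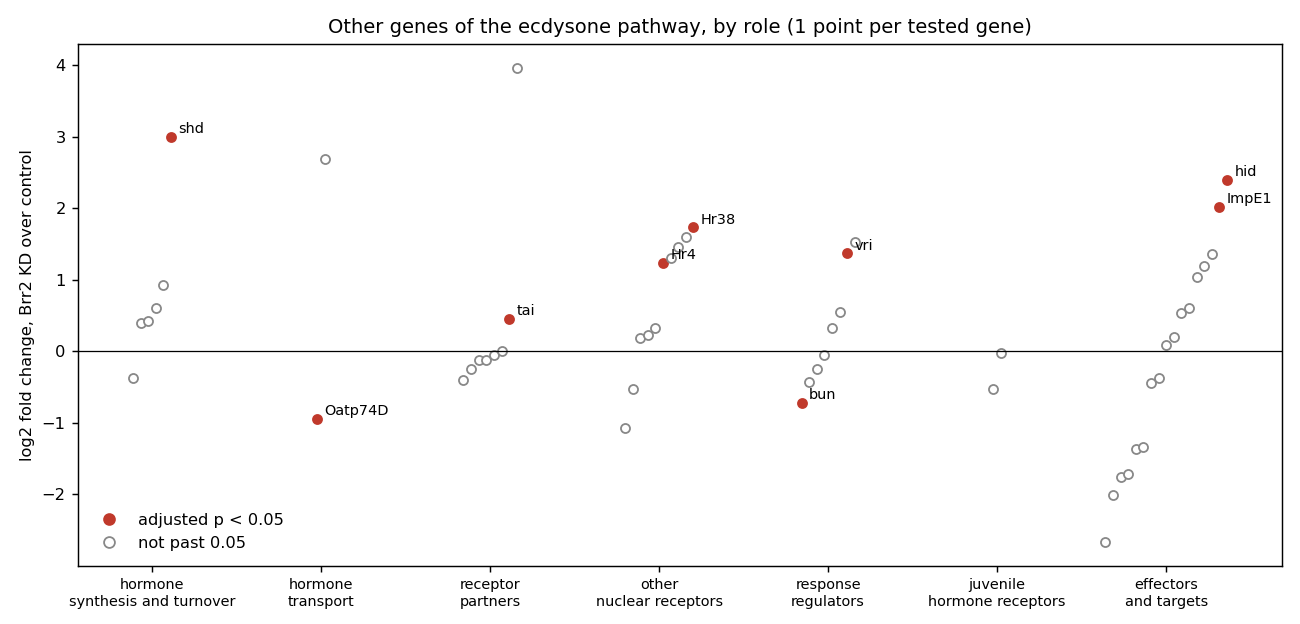
Log2 fold change, Brr2 knockdown over control, of the 53 tested genes of the ecdysone pathway outside the 10, 1 point per gene in 7 role lists. Filled points are genes with an edgeR adjusted p under 0.05 and carry their names; 7 lie above 0 and 2, Oatp74D and bun, below.

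Over the 6 libraries, the genes whose log2 CPM followed that of EcR most closely were Kr-h1, alpha-Man-Ib, scat, disp and RpL7-like, with Pearson's r of 0.991, 0.991, 0.989, 0.988 and 0.987, the highest of 4397 named genes of at least 5 CPM. All were measured in the same libraries, so shared scaling and the group difference enter this likeness. Like EcR, these 5 genes did not pass the test (edgeR adjusted p of 0.0545 to 0.132), with log2 fold changes of 0.30 to 0.65.

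**Figure D5:**
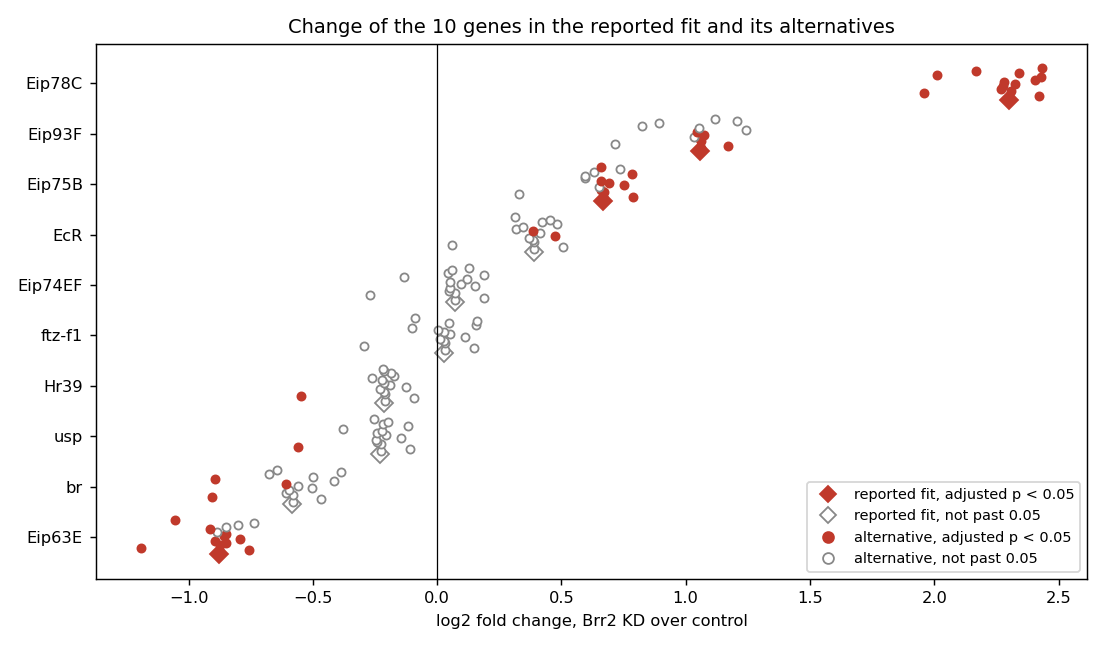
Log2 fold change of each of the 10 genes, Brr2 knockdown over control, in the reported fit (diamonds) and in up to 15 alternatives of scaling, tool, filter, replicate block and left-out library (circles), filled where the adjusted p was under 0.05. Eip78C is filled throughout, from 1.96 to 2.44, while Eip75B, Eip93F and Eip63E keep their direction and are open in some alternatives.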

How the data were processed

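RNA of 6 S2 cell libraries was analysed, 3 under Brr2 knockdown and 3 control. The deposited table holds estimated counts, already whole numbers and unscaled; the authors' way of counting (tool, strand, reads with several hits) is not stated in the sources used here. The submitters' processing notes name Trimmomatic, TopHat2 and the build BDGP6. Gene positions and exon lengths came from Ensembl release 115 (BDGP6.54), matched by identifier for 17751 genes.

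All 14167 features that passed filterByExpr were fitted with edgeR 4.0.16 in R 4.3.3 (TMM scaling, glmQLFit and glmQLFTest, unpaired), and p-values were adjusted by Benjamini-Hochberg over all of them, at a threshold of 0.05. Each SE is the size of the log2 fold change divided by the square root of its F. CPM are counts over TMM-scaled totals; log2 CPM for correlations used a prior count of 2. Totals of 127654975 to 147620403 counts leave the spread between libraries as the main error for all but the rarest genes; Eip78C had 30 counts in one library. Libraries of one group differed by more than sampling noise (117.6 to 1579 chi-square units per degree of freedom). The fit was also run on simulated counts, which held no effect of replicate number. The outcome is not reported here. DESeq2 1.42.0 and limma 3.58.1 (voom), other scalings and filters, a fit of genes only, a block for the replicate number, and fits that left out 1 library each were alternatives.

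Knockdown and control libraries share replicate numbers in the labels, which state no pairing. Deviations from group means correlated at 0.16, 0.239 and 0.317 between libraries with the same number, and at -0.229 to 0.0506 otherwise. By these values libraries with the same number were more alike, and the numbers may pair them. Deviations from a group mean cancel within the group, so higher values for the same numbers push the others down. How often such values arise without pairing was not tested. The reported test is unpaired because no pairing is stated. The block is an alternative, given where it changes a call. Which design holds is not settled here.

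The 10 genes and the lists were chosen with earlier results of these data known. Genes named outside the 10 were Brr2, each called gene and up to 3 uncalled genes of at least 5 CPM per list, and the 5 most like EcR. Markers and overlapping genes were named as checks, and DopEcR and ImpL2 after their values were seen.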

Additional observations from a re-analysis of the deposited data

How the results depend on the processing

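Of the 10 genes, 4 were called in the reported test, 2 with no filter and 1 to 3 when a library was left out. Of the other pathway genes 9 were called, against 16 with total counts only, 17 with DESeq2 and 18 with the replicate block. With no filter 2 were called, at a minimum of 5 CPM 4, and 0 to 11 when a library was left out. The 0 came from edgeR without control replicate 2, where 17 had an unadjusted p under 0.05. Of all genes 2049 were called, against 3361, 3196 and 1258 with total counts only, DESeq2 and no filter, and 629 to 1928 when a library was left out. Fewer samples were fitted in the last case, and more features were adjusted over with no filter. The cause of the differing counts was not tested for any alternative. The fold changes that turned sign were those of genes near 0: Eip74EF (-0.27 with total counts only, and -0.13 to 0.19 when a library was left out, the lowest without knockdown replicate 2) and ftz-f1 (-0.29 with total counts only, and -0.10 to 0.16 when a library was left out, negative without knockdown replicate 2 or control replicate 3). The call of Brr2 held in all 15 alternatives. Per coding length, 7 of the 10 genes in knockdown libraries and 6 in control libraries kept their place in the order of levels. Among the 10 genes the replicate block added calls of EcR and br and changed no other, and among the other pathway genes it added 9, all lower, and lost 0. Depth limits Eip78C most, and gene-level counts leave isoforms unresolved.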
